A study of Saccharomyces cerevisiae W303 with 86 samples.

Results

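The 33 genes described here are the 32 subunit genes of the yeast 26S proteasome that carry the names RPN1 to RPN3, RPN5 to RPN13, RPT1 to RPT6, PRE1 to PRE10, PUP1 to PUP3 and SCL1, together with RPN4, the gene of their transcriptional activator. They were found by systematic identifier, and all 33 had a row among the 7126 features listed in each library. The list was chosen with earlier results of these data known. The series holds 78 poly(A) mRNA libraries and 8 ribosome footprint libraries of Saccharomyces cerevisiae W303-1A, a haploid laboratory strain of mating type a, grown to mid-log phase in synthetic medium with 2% glucose. The OXPHOS set compared strains without COR1 (a complex III subunit), COX9 (a complex IV subunit) or ATP7 (an ATP synthase subunit) and a rho0 strain, which has lost its mitochondrial DNA, with wild type (3 libraries per mutant and 6 of wild type). The PUF3 set held puf3 rho0, rho0, atp7 puf3, atp7, puf3 and wild type, where PUF3 encodes an RNA-binding protein that acts on mRNAs of mitochondrial proteins. The Puf3-15A set held the puf3-15A allele in rho0, rho0, puf3-15A and wild type. The SNF1 set held snf1 cells and wild-type cells given 25 µg/ml ethidium bromide (EB) for 48 h, untreated snf1 cells and untreated wild type, where SNF1 encodes the kinase that relieves glucose repression, and EB is a dye under which yeast loses its mitochondrial DNA. The MIG1 set compared snf1 mig1 cells with snf1 cells, both under the same EB treatment. The INH1 set held a rho0 strain with CUP1p-INH1, the gene of an ATPase inhibitor under a copper-inducible promoter, with 10 mM CuSO4 for 12 h and without copper, rho0 without the construct and wild type. All these mRNA groups had 3 libraries, and the footprint groups (rho0, puf3, puf3 rho0 and wild type) had 2. All footprint libraries, and no mRNA libraries, came from cells given cycloheximide at 100 µg/ml for 2 min. The labels number the replicates without saying whether they came from separate cultures, so p-values measure the spread between these libraries.

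The 26S proteasome degrades proteins marked with ubiquitin. Its core particle is a barrel of alpha and beta rings, in which the beta subunits Pre3, Pup1 and Pre2 carry the proteolytic sites, and the alpha ring gates the entry. The regulatory particle on its end has a base, where the Rpt ATPases unfold substrates and Rpn10 and Rpn13 bind ubiquitin, and a lid, where Rpn11 removes the ubiquitin chain. Rpn4 binds a promoter element shared by most subunit genes and raises their transcription, and it is itself a short-lived substrate of the proteasome, so that its level is set in part by proteasome activity. The RPN4 gene is in turn a target of the heat shock factor Hsf1, of Yap1 and of the drug resistance regulators Pdr1 and Pdr3.

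The deposited values are RPKM (reads per kilobase of gene, scaled to the size of the library), which are given below as deposited. Log2 changes were fitted on log2(RPKM + 1) after the libraries of a set had been rescaled to one another by trimmed means, and are followed by their standard error. A gene is called where limma's moderated test gave a Benjamini-Hochberg adjusted p under 0.05 over all features tested. Changes are therefore relative to the bulk of the features of a set. Without the rescaling the median of all features moved by 0.11 for rho0 in the INH1 set, by 0.10 for atp7 in the PUF3 set, by 0.12 for snf1 against wild type, by 0.23 for snf1 EB against EB and by 0.115 for the difference between these snf1 effects. It moved by 0.113 and 0.151 for rho0 and puf3 rho0 footprints, and by 0.111 and 0.103 for the efficiencies of the same comparisons. The text says where this turned a direction. Reads per library, worked out from the steps between values, came to 8.62 to 14.4 M in 5 of the 6 mRNA sets, to 18.8 to 71.2 M in the MIG1 set and to 1.15 to 2.98 M in the footprint set. The deleted genes were at no more than 1.77 RPKM in their mutants, against at least 19.9 RPKM in wild type, and the summed RPKM of COX1, COB, COX3 and OLI1 was at most 0.784 in the 40 rho0 and EB libraries, against at least 4.07 in the other 46.

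Some libraries go against the label of a mating type a strain. The 7 a-specific genes (MFA1, STE2 and others) summed to 16.8 to 42.3 RPKM in wild-type footprints, in the snf1 and snf1 EB groups of the SNF1 set, in both groups of the MIG1 set and in wild type of the INH1 set. They summed to 566 to 830 RPKM in wild type of the PUF3 set and to 1100 to 3050 RPKM in the remaining groups. The haploid-specific genes were low in the same groups, at 9.24 to 83.8 RPKM summed in the first 6 groups and 209 to 249 RPKM in wild type of the PUF3 set, against 441 to 711 RPKM elsewhere. None of the a-specific genes was at 0 in every library of a group. All libraries of a group shared this state, so a comparison that uses such a group against one with high markers cannot be repeated without it, and the part of this difference in the results was not tested. Comparisons of rho0 in the OXPHOS and Puf3-15A sets, of EB in wild type, of puf3 in rho0 and of copper have high markers on both sides.

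The subunit mRNAs were of similar and high abundance. In wild type of the OXPHOS set their means ranged from 142 RPKM for the lid subunit RPN9 (YDR427W, chromosome IV, 1322205 to 1323386 in R64) to 269 RPKM for the alpha subunit SCL1 (YGL011C), with a median of 195 RPKM, so that the highest was 1.9 times the lowest. They lay between percentiles 83.3 and 91.1 of all features. In every group of the series the highest subunit mean was 1.79 to 2.41 times the lowest. RPN4 (YDL020C, chromosome IV, 415113 to 416708) was much lower, at percentile 54.3. Its 6 wild-type libraries of the OXPHOS set held 55.9, 54.3, 54.6, 36.9, 33.7 and 30.9 RPKM, so that libraries 1 to 3 and 4 to 6 form separate trios. In the order of the samples, libraries 1 to 3 stand with cor1, cox9 and atp7, and libraries 4 to 6 with rho0. The labels do not say which trio belongs to which mutants. Results of this set pool all 6 libraries unless a trio is named. No other gene of the annotation table overlaps any of the 33.

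**Figure D1:**
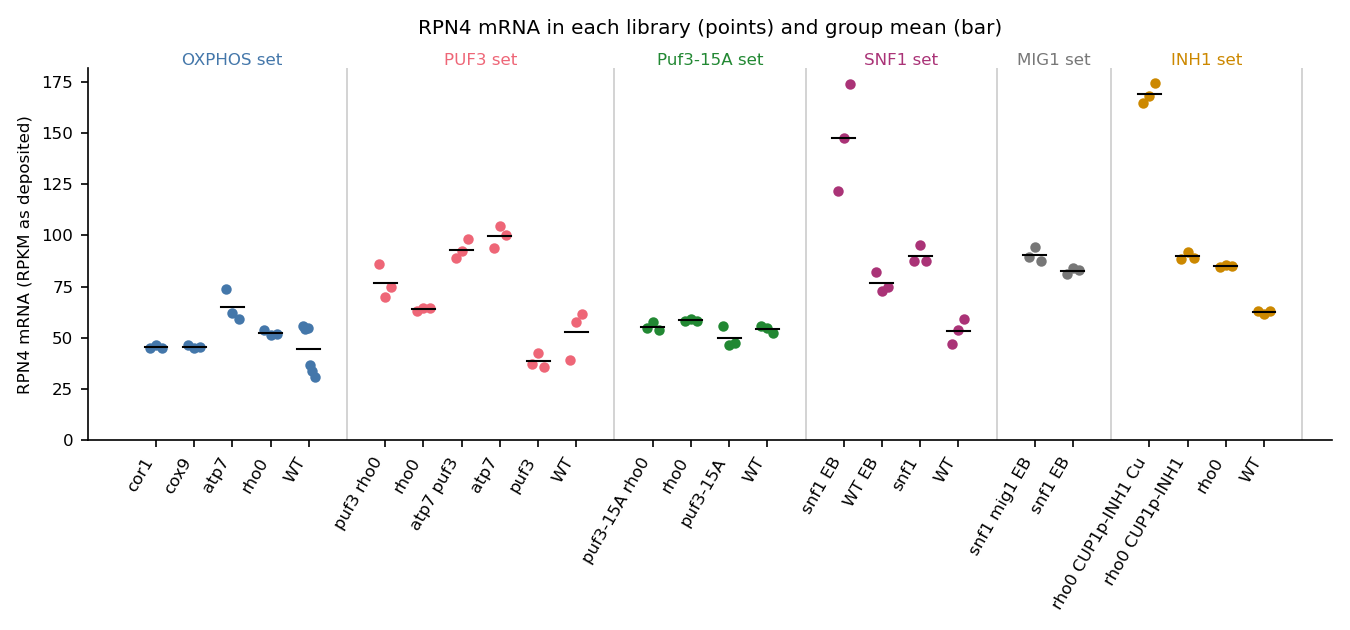
RPN4 mRNA in RPKM as deposited (y axis) for every mRNA library, by group and set (x axis), with a bar at each group mean. The copper-treated rho0 CUP1p-INH1 libraries (165 to 175 RPKM) and the snf1 EB libraries of the SNF1 set (122 to 174 RPKM) are highest, and the wild-type libraries of the OXPHOS set fall into 2 trios.

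After rescaling, loss of mitochondrial DNA went with lower subunit mRNA in each of the 4 mRNA sets that hold rho0 and wild type. As deposited, the fall was not seen in the INH1 set (median -0.00074). The number of subunits called lower was 24 of 32 in the OXPHOS set (25.3% of all features tested were called lower), 30 of 32 in the PUF3 set (19.2%), 15 of 32 in the Puf3-15A set (27.5%) and 22 of 32 in the INH1 set (35.7%). In the Puf3-15A set another 2 subunits were called higher (27.8% of all features) and in the INH1 set another 3 (34.6%). The median log2 change of the subunits was -0.17, -0.36, -0.09 and -0.11 in these sets, while the median of all features was -0.02, -0.02, -0.00050 and -0.01. Of the 32 subunits, 22 had a log2 change below 0 in all 4 sets, called or not. The same share over all features was not worked out. Wild type of the PUF3 and INH1 sets has the lower mating-type markers, while the OXPHOS and Puf3-15A sets have markers of 1250 to 2930 RPKM summed in both groups.

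The 6 ATPase genes of the base were the most uniform subcomplex. All 6 were called lower in the OXPHOS, PUF3 and INH1 sets (25.3%, 19.2% and 35.7% of all features), and 4 in the Puf3-15A set (27.5%). RPT6 (YGL048C, chromosome VII, 410069 to 411286), an ATPase of the base, had 160, 163 and 161 RPKM in rho0 of the OXPHOS set, against 172 to 212 RPKM, with a median of 185 RPKM, in the 6 wild-type libraries. In the PUF3 set it had 176, 148 and 142 RPKM in rho0, against 185, 215 and 214 RPKM in wild type. In the Puf3-15A set it had 186, 173 and 179 RPKM in rho0, against 208, 206 and 209 RPKM in wild type. Every rho0 library lay below every wild-type library in these sets. The INH1 set gave 172, 184 and 183 RPKM in rho0, against 202, 203 and 193 RPKM in wild type, again without overlap. The log2 changes of RPT6 were -0.30 ± 0.05, -0.40 ± 0.05, -0.24 ± 0.03 and -0.27 ± 0.03 (adjusted p 5.63e-05, 9.92e-06, 6.75e-05 and 1.45e-05). RPT3 (YDR394W, chromosome IV, 1261681 to 1262967), another ATPase, fell by 0.36, 0.42, 0.23 and 0.24.

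RPN1 (YHR027C), the large base subunit that receives ubiquitin shuttles, had the lowest change of any subunit in the PUF3 set. It had 166, 117 and 124 RPKM in rho0, against 176, 216 and 208 RPKM in wild type (log2 change -0.57 ± 0.08, adjusted p 3.84e-05). The first rho0 library lies apart from the other two and close to the first wild-type library. RPN13 (YLR421C), a ubiquitin receptor of the base, fell by 0.33, 0.37, 0.22 and 0.20 in the 4 sets in the order given above. Its neighbour in the base RPN2 (YIL075C), a scaffold subunit, was called in the PUF3 set alone, where it fell by 0.18 ± 0.07, and had changes of -0.02, 0.03 and 0.03 in the OXPHOS, Puf3-15A and INH1 sets.

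In the lid, 7 of 8 genes were called lower in the OXPHOS set (25.3% of all features) and 8 in the PUF3 set (19.2%). The count was 5 in the Puf3-15A set (27.5%) and 6 in the INH1 set (35.7%). RPN9, a structural lid subunit, and RPN3 were lower in all 4 sets, with RPN3 (YER021W) at 133, 130 and 134 RPKM in rho0 of the OXPHOS set, against 137 to 176 RPKM, with a median of 151 RPKM, in wild type. RPN11, the deubiquitinase, was called in the PUF3 and INH1 sets and had log2 changes of -0.09 and 0.05 in the OXPHOS and Puf3-15A sets. Called lower in every one of the 4 sets were RPN3, RPN6, RPN7, RPN8 and RPN9 of the lid, RPN1, RPN13, RPT2, RPT3, RPT4 and RPT6 of the base, and SCL1, PRE5 and PUP1 of the core. The share of all features called lower in all 4 sets was not worked out, so nothing is read from the number of these subunits.

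Calls in the core particle were less uniform, and the subunits called higher lay in it. In the Puf3-15A and INH1 sets 4 and 7 of the 14 core subunits were called lower (27.5% and 35.7% of all features). In these sets 2 and 3 were called higher (27.8% and 34.6%). The counts called higher lie below the share over all features and the 4 lies near it, so nothing is read from them about the core. PRE3 (YJL001W, chromosome X, 435163 to 435926), the beta subunit with caspase-like activity, had 293, 285 and 284 RPKM in rho0 of the Puf3-15A set, against 262, 255 and 258 RPKM in wild type. In the INH1 set it had 277, 272 and 269 RPKM in rho0, against 217, 222 and 230 RPKM in wild type. It rose in both sets without overlap (log2 change 0.13 ± 0.03 with adjusted p 0.00111, and 0.17 ± 0.03 with adjusted p 0.000351). PRE8 (YML092C, chromosome XIII, 85987 to 86739), an alpha subunit, rose by 0.11 ± 0.04 and 0.09 ± 0.03 in these sets (adjusted p 0.029 and 0.0058). PUP2, also an alpha subunit, rose by 0.07 ± 0.03 in the INH1 set (adjusted p 0.0462) and fell by 0.18 ± 0.06 in the PUF3 set. In the OXPHOS and PUF3 sets PRE3 had changes of 0.04 and -0.14, and PRE8 of 0.10 and -0.10, none of them called.

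**Figure D2:**
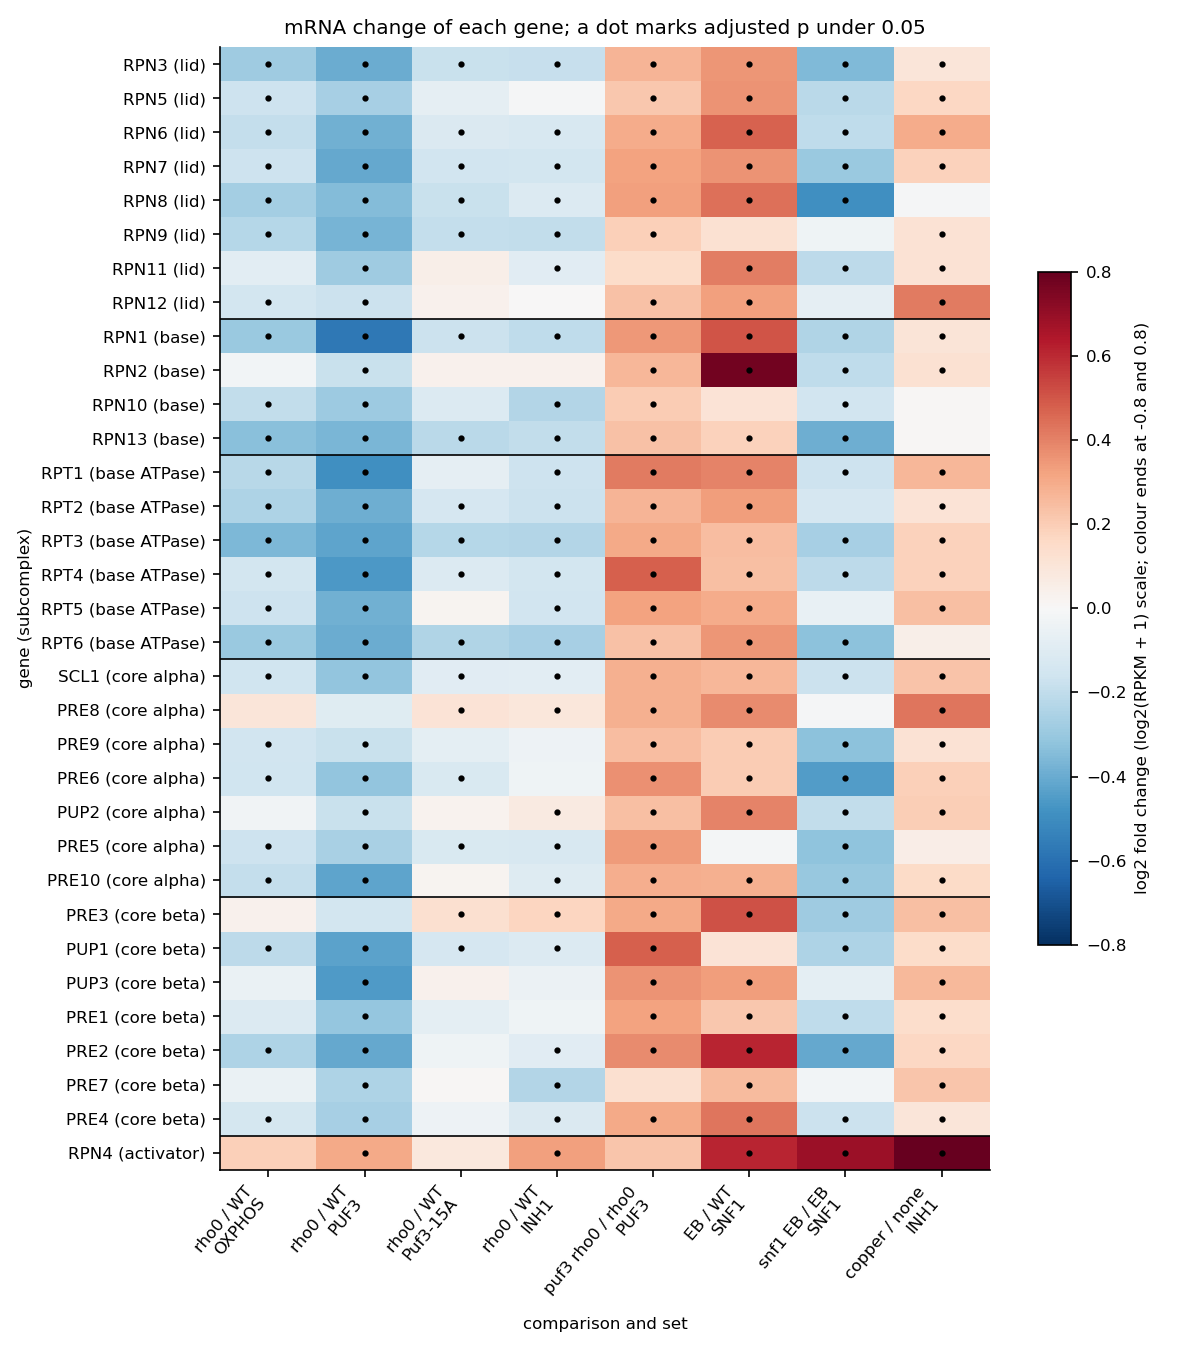
Log2 fold change of each of the 33 genes (rows, grouped by subcomplex) in 8 mRNA comparisons (columns, each with its set), blue for lower and red for higher, with a dot where the adjusted p was under 0.05. The ATPase rows are blue in the 4 rho0 columns except RPT5 in the Puf3-15A set, PRE3 and PRE8 are red in the Puf3-15A and INH1 columns, and the snf1 EB column and the INH1 rho0 column are the ones that the rescaling of the libraries moved most.

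Part of this fall depends on the rescaling. With RPKM as deposited, 1 subunit was called higher and 9 lower in the OXPHOS set. In the INH1 set 9 were higher and 9 lower, with a median of -0.00074. There the summed RPKM of the subunits was 6846 to 6928 in rho0, above the 6763 to 6812 in wild type. These sums overlapped in the OXPHOS set (5907 to 5998 in rho0, 5805 to 6889 in wild type). They also overlapped in the PUF3 set (4828 to 6264, against 5984 to 7007). In the Puf3-15A set rho0 was lower (6838 to 6890, against 6976 to 7189). Of the subunits called lower after rescaling, 28 were also called lower without it in the PUF3 set and 13 in the Puf3-15A set. In the OXPHOS set the wild-type trios also differed from each other, with 24 subunits lower and none higher in wild-type libraries 4 to 6 than in libraries 1 to 3 (median -0.12, 42.9% of all features called between these trios). Against libraries 1 to 3 alone 28 subunits were lower in rho0 (median -0.24), and against libraries 4 to 6 alone 15 were lower and 2 higher (median -0.11). In the PUF3 set the first rho0 library and the first wild-type library stand apart from their groups in the subunits, and HSP12, a general stress gene, had 2712, 740 and 558 RPKM in the 3 rho0 libraries, against 145, 261 and 322 RPKM in wild type. Without both of these first libraries all 32 subunits were called lower, with a median of -0.44. With only the rho0 and wild-type libraries in the fit, 13 of the 30 subunits were also called lower. In bulk RNA, fewer cells with a given state and less of an mRNA per cell cannot be told apart.

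The activator was called lower in rho0 of none of these sets and higher in 2 of them, the INH1 and PUF3 sets. The wild type of both has the lower mating-type markers given above, and their part in the RPN4 values was not tested. RPN4 had 84.8, 85.8 and 85.3 RPKM in rho0 of the INH1 set, against 62.9, 61.5 and 63.1 RPKM in wild type, a rise of 0.33 ± 0.03 (adjusted p 1.14e-07). In the PUF3 set it had 63.1, 64.5 and 64.6 RPKM in rho0, against 39.0, 57.9 and 61.5 RPKM in wild type, a log2 change of 0.30 ± 0.11 (adjusted p 0.034) that rests on the first wild-type library. Without that library the change was 0.15 (adjusted p 0.176), and without rho0 library 2 or 3 it was 0.28 in both cases (adjusted p 0.0995 and 0.0975). In the Puf3-15A set it had 58.3, 59.0 and 58.3 RPKM in rho0, against 55.6, 54.8 and 52.5 RPKM in wild type (0.08 ± 0.06, adjusted p 0.239). In the OXPHOS set the 3 rho0 libraries held 53.6, 51.4 and 51.8 RPKM, which lie below the first wild-type trio and above the second (0.19 ± 0.15, adjusted p 0.322). The change was -0.13 (adjusted p 0.0877) against wild-type libraries 1 to 3 and 0.50 (adjusted p 2.98e-05) against libraries 4 to 6.

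Of the single respiratory mutants, atp7 had higher RPN4. In the OXPHOS set RPN4 had 73.8, 62.0 and 59.0 RPKM in atp7, against 30.9 to 55.9 RPKM in wild type, with a median of 45.6 RPKM (log2 change 0.48 ± 0.15, adjusted p 0.016). In the PUF3 set it had 93.9, 104.8 and 99.99 RPKM in atp7, against 39.0, 57.9 and 61.5 RPKM in wild type (0.82 ± 0.11, adjusted p 1.49e-05, a 1.77-fold rise). All atp7 libraries lay above all wild-type libraries in both sets. Wild type of the PUF3 set has the lower mating-type markers given above. Its a-specific genes summed to 566 to 830 RPKM, against 2470 to 2600 RPKM in atp7, and their part in the result was not tested. The subunits did not rise with RPN4. In the OXPHOS set 3 of 32 were called lower, RPN13, RPT6 and RPN10 (24.5% of all features were called lower), with a subunit median of -0.04 that became 0.06 without rescaling. In the PUF3 set 6 were called lower, RPT6, RPN1, PRE7, RPT3, RPN9 and RPT5 (26.9% of all features), and the median of -0.06 became 0.05 without rescaling. None of these 9 calls was left without the rescaling, and 3 subunits were then called higher in each set. Against wild-type libraries 1 to 3 alone, RPN4 in atp7 changed by 0.17 (adjusted p 0.0431), and 14 subunits were called lower (median -0.10). Against libraries 4 to 6 alone, 0 subunits were lower and 5 higher (median 0.02). With only atp7 and wild type in the OXPHOS fit the adjusted p of RPN4 was 0.0765. Without the first atp7 library of the OXPHOS set RPN4 had a change of 0.39 (adjusted p 0.0933) and 0 subunits were called, and with library 2 or 3 left out 1 was. In the PUF3 set 1 of the 6 lower subunits was also called without wild-type library 2 or 3 or any 1 of the atp7 libraries.

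In cor1 and cox9 the subunits were called neither higher nor lower against the pooled wild-type libraries. RPN4 had 44.92, 46.63 and 44.97 RPKM in cor1 and 46.7, 45.03 and 45.39 RPKM in cox9, against the 2 wild-type trios given above, between which these values lie. The log2 changes of RPN4 were 0.07 ± 0.15 and 0.08 ± 0.15 (adjusted p 0.801 and 0.771). By limma's test 0 of 32 subunits were called in cor1 (6.38% of all features were called in either direction) and 0 in cox9 (6.82%), with 4 and 3 at an unadjusted p under 0.05. The subunit medians were 0.02 and 0.03. Which trio serves as wild type decides the outcome here. RPN4 was lower in cor1 and cox9 against libraries 1 to 3 alone (-0.24 in both, adjusted p 0.0221 and 0.0265) and higher against libraries 4 to 6 alone (0.39 in both, adjusted p 0.000651 and 0.000523), where 14 and 16 subunits were also called higher.

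**Figure D3:**
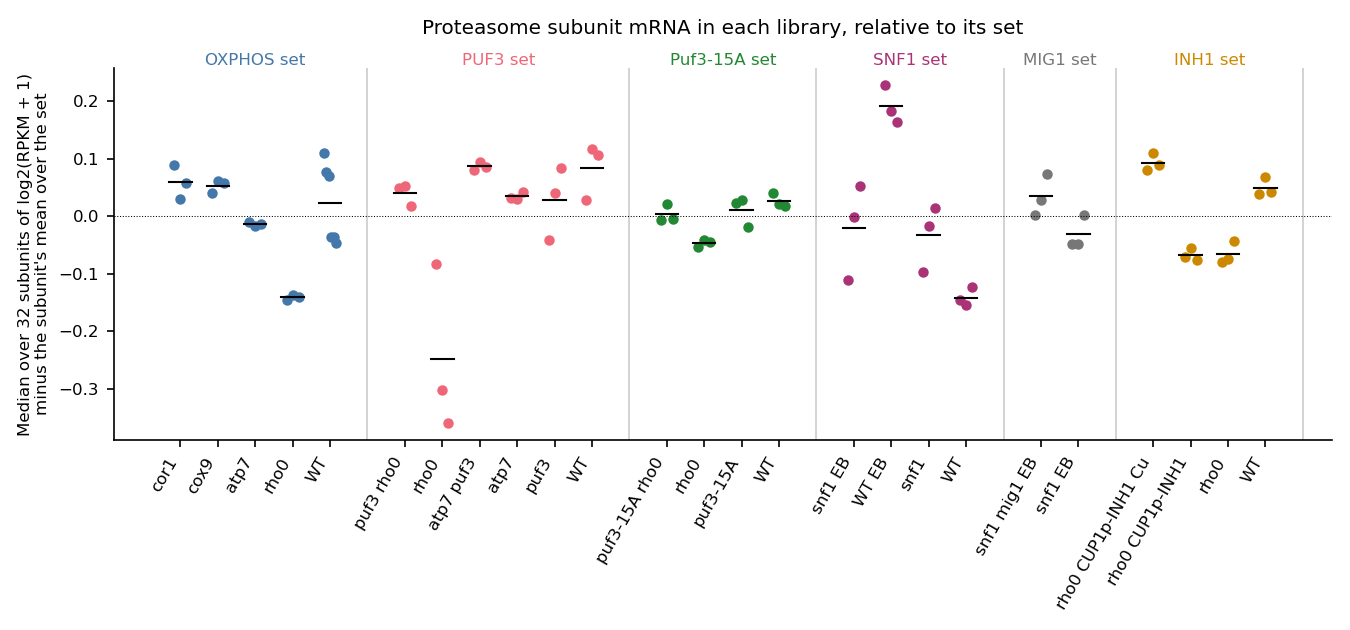
Median over the 32 subunits of log2(RPKM + 1), each subunit relative to its mean over the set and after rescaling (y axis), for every mRNA library by group and set (x axis), with a bar at each group mean. The rho0 libraries lie below the wild-type libraries of their set in the 4 sets with rho0, the first rho0 library of the PUF3 set lies apart from the other 2, and the EB-treated wild type of the SNF1 set lies above its wild type (without rescaling the rho0 median of the INH1 set is near 0).

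The loss of PUF3 had a subunit median below 0 in wild type and above 0 in rho0. RPN4 had 37.5, 42.6 and 35.9 RPKM in puf3, against 39.0, 57.9 and 61.5 RPKM in wild type, where the groups overlap (log2 change -0.36 ± 0.11, adjusted p 0.0324). Among the subunits RPN12 alone was called lower in puf3 (6.58% of all features), with a median of -0.07. With only these 2 groups in the fit neither call was left, and the adjusted p of RPN4 was 0.202. Leaving out wild-type library 2 gave an adjusted p of 0.154 and wild-type library 3 one of 0.164, while puf3 libraries 1 and 3 gave 0.0687 and 0.109. Dropping wild-type library 1 gave 2 called subunits, and dropping library 2 or 3 of either group gave 0. In rho0 the loss of PUF3 raised 30 of 32 subunits (15.8% of all features were called higher), with a median of 0.29. PUP1 (YOR157C, chromosome XV, 630966 to 631751), the beta subunit with trypsin-like activity, had 226, 206 and 203 RPKM in puf3 rho0, against 189, 134 and 126 RPKM in rho0 (0.48 ± 0.09, adjusted p 0.00139). RPT1, an ATPase of the base, had 221, 205 and 205 RPKM in puf3 rho0, against 189, 138 and 138 RPKM in rho0 (0.42 ± 0.07, adjusted p 0.00082). RPN11 and PRE7 had the remaining values of 0.15 and 0.13, which were not called. RPN4 had 86.1, 70.1 and 74.8 RPKM in puf3 rho0, against 63.1, 64.5 and 64.6 RPKM in rho0, above it in every library, with a change of 0.22 ± 0.11 (adjusted p 0.129).

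The difference between the effects of puf3 in rho0 and in wild type was itself called for 28 of 32 subunits, all positive (17.4% of all features), with a median of 0.37, and for RPN4 (0.58 ± 0.15, adjusted p 0.00692). RPN12, a lid subunit, had the smallest p (0.38 ± 0.06, adjusted p 0.000284). The wild type of this set has the lower mating-type markers given above, and the comparison of puf3 rho0 with rho0 shares its rho0 libraries with the comparison of rho0 with wild type. With only puf3 rho0 and rho0 in the fit 10 of 32 were called, and without the first library of both groups 32 (median 0.38). In atp7 cells, loss of PUF3 called 0 of 32 subunits by limma's test (2.22% of all features called in either direction, and 0 subunits at an unadjusted p under 0.05), and RPN4 had 88.8, 92.3 and 98.2 RPKM in atp7 puf3, against 93.9, 104.8 and 99.99 RPKM in atp7. The difference of the puf3 effect in atp7 from that in wild type was called for 0 subunits (7.46% of all features, 3 subunits at an unadjusted p under 0.05) and had a median of 0.12. RPN4 had 0.30 ± 0.15 (adjusted p 0.223) for this difference, and 0.45 (adjusted p 0.00762) without wild-type library 1, where 1 subunit was called, as without puf3 library 1.

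The puf3-15A allele changed few members. In otherwise wild-type cells 0 of 32 subunits were called by limma's test (13.2% of all features in either direction, 1 subunit at an unadjusted p under 0.05). In rho0 SCL1 was called higher in puf3-15A rho0 (0.11 ± 0.03, adjusted p 0.0209, 10.7% of all features called higher). SCL1 and RPN2 were called for the difference of the puf3-15A effect in rho0 from that in wild type (0.14 ± 0.04 and 0.12 ± 0.04, 10.4% of all features). None of these 3 calls was left without rescaling, and leaving out single libraries gave 0 to 3 calls in each comparison (0 without rho0 library 1 and 3 without rho0 library 3, in both). RPN4 had 54.6, 57.7 and 54.0 RPKM in puf3-15A rho0, against 58.3, 59.0 and 58.3 RPKM in rho0, and 55.7, 46.8 and 47.5 RPKM in puf3-15A, against 55.6, 54.8 and 52.5 RPKM in wild type, with changes of -0.02 and -0.09 that were not called. Without puf3-15A library 1 the second change was -0.16 (adjusted p 0.0369).

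Wild-type cells given EB had lost the mitochondrial transcripts like rho0 cells, while their subunit mRNAs were higher than in untreated wild type. The sets were not tested against each other for this. In EB-treated cells 28 of 32 subunits were called higher than in untreated wild type (36.2% of all features were called higher), with a median of 0.33. RPN2 rose most. It had 346, 354 and 345 RPKM in EB-treated cells, against 212, 217 and 223 RPKM in untreated wild type (0.77 ± 0.06, adjusted p 6.29e-08, a 1.71-fold rise). PRE2 (YPR103W, chromosome XVI, 732349 to 733212), the beta subunit with chymotrypsin-like activity, had 331, 319 and 342 RPKM in EB-treated cells, against 239, 222 and 231 RPKM in untreated wild type (0.61 ± 0.06, adjusted p 1.46e-06). RPN1, PRE3, RPN6 and RPN8 rose by 0.51, 0.51, 0.47 and 0.44. The 4 subunits not called were RPN9 (0.12), PUP1 (0.11), RPN10 (0.11) and PRE5 (-0.01). Without rescaling 24 were called higher and 1 lower. RPN4 had 82.1, 72.8 and 75.0 RPKM with EB, against 47.0, 53.8 and 59.2 RPKM in untreated wild type (0.61 ± 0.12, adjusted p 0.000683). The a-specific genes were also lower with EB in this set, at 1170 to 1350 RPKM summed, against 2260 to 2450 RPKM in untreated wild type, and their part in the result was not tested.

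Untreated snf1 cells raised RPN4 and a minority of the subunits. RPN4 had 87.5, 95.2 and 87.3 RPKM in snf1, against 47.0, 53.8 and 59.2 RPKM in wild type (0.63 ± 0.12, adjusted p 0.00277). The 8 subunits called higher were RPT4, RPT5, PRE7, RPN6, RPN1, RPN2, RPT1 and PRE4, with changes of 0.18 to 0.24 (14.1% of all features called higher). Without rescaling 26 were called higher. Leaving out snf1 library 2 or 3 or wild-type library 1 or 2 gave 3, and leaving out wild-type library 3 gave 5. In EB-treated cells the loss of SNF1 went with lower subunits and higher RPN4. RPN4 had 122, 148 and 174 RPKM in snf1 EB, against 82.1, 72.8 and 75.0 RPKM in EB-treated wild type (0.69 ± 0.12, adjusted p 0.000399). Of the subunits 25 were called lower in snf1 EB (30.2% of all features), with a median of -0.21, but without rescaling the median was 0.03, with 4 lower and 6 higher, so the direction depends on the rescaling. Without the first snf1 EB library 16 were called lower. RPN8, a lid subunit, had 217, 232 and 235 RPKM in snf1 EB, against 280, 269 and 264 RPKM in EB-treated wild type (-0.49 ± 0.07, adjusted p 3.84e-05), which do not overlap as deposited either. The alpha subunit PRE8 had 278, 274 and 310 RPKM in snf1 EB, against 240, 253 and 237 RPKM in EB-treated wild type, with a change of -0.01 on the rescaled values.

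The response to EB differed between snf1 cells and wild type. The difference was negative in all 32 subunits and called in 28 (22.9% of all features were called lower), with a median of -0.32, and it was largest for PRE2 (-0.52 ± 0.09, adjusted p 0.00034). Without rescaling 17 were called. Within snf1 cells, EB raised 4 subunits, RPN2, PUP3, PRE8 and RPN12 (27.8% of all features called higher), and lowered 6, PRE5, RPN13, RPT4, PUP1, RPT3 and RPN10 (30.8% called lower), with a median of 0.02. Without the first snf1 EB library 7 were higher and 3 lower. RPN2 had 344, 367 and 363 RPKM in snf1 EB, against 274, 274 and 263 RPKM in untreated snf1 (0.38 ± 0.06, adjusted p 9.59e-05). RPN4 rose within snf1 cells by 0.67 ± 0.12, and for it the response to EB did not differ between snf1 and wild type beyond error (0.06 ± 0.18, adjusted p 0.821). The snf1 and snf1 EB libraries have the low mating-type markers given above, so snf1 and this state cannot be told apart.

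In the MIG1 set the additional loss of MIG1, a glucose repressor, called 0 of 32 subunits by limma's test (30.8% of all features in either direction, 6 subunits at an unadjusted p under 0.05). RPN4 had 89.2, 94.3 and 87.7 RPKM in snf1 mig1 EB, against 81.2, 84.1 and 83.1 RPKM in snf1 EB, without overlap (0.19 ± 0.07, adjusted p 0.0614). In this set libraries with the same number deviated together, and with the replicate number as a block the adjusted p of RPN4 was 0.0243 and 1 subunit was called. Without snf1 mig1 EB library 3 RPN4 had 0.25 (adjusted p 0.0236) and 1 subunit was called lower. Both groups have the low mating-type markers. The snf1 EB libraries of the SNF1 set held 122 to 174 RPKM of RPN4, but the sets were normalised separately and were not compared.

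**Figure D4:**
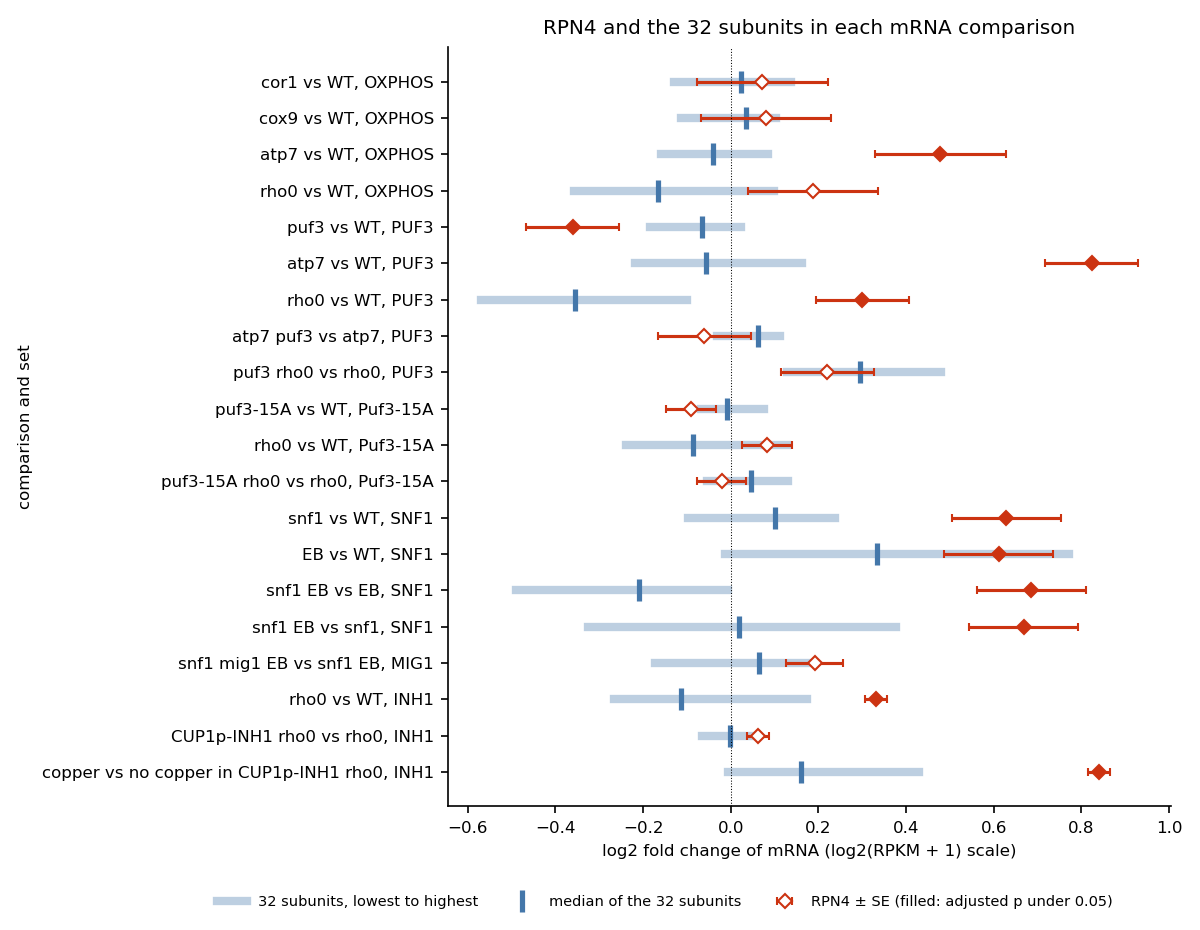
Log2 fold change of mRNA on the log2(RPKM + 1) scale (x axis) in the 20 mRNA comparisons (y axis, each with its set), with a diamond and standard error for RPN4, a band from the lowest to the highest of the 32 subunits and a tick at their median. RPN4 lies above the whole band for atp7 in both sets, for rho0 in the OXPHOS, PUF3 and INH1 sets, for snf1, for snf1 EB against EB and against snf1, for snf1 mig1 EB, for CUP1p-INH1 rho0 and for copper, while with EB in wild type it lies within the band (the band of snf1 EB against EB centres near 0 without rescaling).

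Copper added to rho0 cells with CUP1p-INH1 gave the highest RPN4 level of the INH1 set. RPN4 had 165, 168 and 175 RPKM with copper, against 88.7, 91.7 and 89.0 RPKM without (0.84 ± 0.03, adjusted p 1.52e-11, a 1.79-fold rise). Of the 32 subunits 27 were called higher with copper (35.3% of all features called higher), with a median of 0.16, and without rescaling 31 were. PRE8 rose most, with 327, 313 and 314 RPKM with copper, against 219, 228 and 230 RPKM without (0.43 ± 0.03, adjusted p 9.51e-09). RPN12 (YFR052W, chromosome VI, 252505 to 253329), a lid subunit, had 223, 214 and 218 RPKM with copper, against 157, 162 and 150 RPKM without (0.41 ± 0.03, adjusted p 5.92e-08). All 7 beta subunits, 6 of 7 alpha subunits and 5 of 6 ATPases rose, and 2 of the 4 other base subunits did. The 5 subunits not called were PRE5 (0.05), RPT6 (0.05), RPN10 (0.01), RPN13 (0.01) and RPN8 (-0.01). The a-specific genes were lower with copper, at 1100 to 1160 RPKM summed, against 1980 to 2090 RPKM without, and their part in the result was not tested. No copper-treated libraries without the construct are among these groups, so copper and the induced INH1 cannot be told apart. The construct without copper called 0 of 32 subunits by limma's test against rho0 (17.8% of all features in either direction, 2 subunits at an unadjusted p under 0.05), and RPN4 had 88.7, 91.7 and 89.0 RPKM with the construct, against 84.8, 85.8 and 85.3 RPKM in rho0 (0.06 ± 0.03, adjusted p 0.111).

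Ribosome footprints give the same genes at the level of translation, at lower depth and with 2 libraries per group. Footprint RPKM divided by mRNA RPKM of the PUF3 set, both as deposited, had a median over the subunits of 0.989 in rho0, 0.8 in puf3, 0.863 in puf3 rho0 and 0.794 in wild type. The ratios were not tested against each other. In wild type the a-specific genes summed to 16.8 to 32.4 RPKM in footprints, against 566 to 830 RPKM in mRNA. The summed subunit mRNA of the 3 rho0 libraries was uneven, at 4828, 4916 and 6264 RPKM. RPN12 had the highest ratio in wild type (1.16) and RPN2 the lowest (0.633), and RPN4 had 0.685 in rho0, 0.812 in puf3, 0.727 in puf3 rho0 and 0.733 in wild type. In rho0 footprints 2 subunits were called lower than in wild type (12.2% of all features), RPT6 and RPN1. RPT6 had 150 and 158 RPKM in rho0 footprints, against 179 and 171 RPKM in wild type (-0.31 ± 0.07, adjusted p 0.0214), and RPN1 109 and 126 RPKM in rho0, against 136 and 139 RPKM in wild type (-0.35 ± 0.10, adjusted p 0.0433). The subunit median of -0.12 was 0.0025 without rescaling, where 2 subunits were called higher and none lower. With either wild-type library or the first rho0 library left out, 1 subunit was called lower. PRE8 had 267 and 255 RPKM in rho0 footprints, against 181 and 199 RPKM in wild type (0.33 ± 0.10, adjusted p 0.0537). RPN4 footprints were 39.2 and 48.6 RPKM in rho0, against 40.3 and 37.2 RPKM in wild type, which overlap.

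The rise of subunit mRNA in puf3 rho0 over rho0 had no called counterpart in footprints. By limma's test 0 of 32 subunits were called between puf3 rho0 and rho0 footprints (4.62% of all features in either direction, 8 subunits at an unadjusted p under 0.05), and the median was -0.07 (0.09 without rescaling). PUP1 had 182 and 185 RPKM in puf3 rho0 footprints, against 176 and 210 RPKM in rho0. Between puf3 and wild-type footprints 0 of 32 were called (1.32% of all features, 4 subunits at an unadjusted p under 0.05), and RPN4 had 31.2 and 31.6 RPKM in puf3, against 40.3 and 37.2 RPKM in wild type (-0.31 ± 0.13, adjusted p 0.435). Translational efficiency, the footprint change minus the mRNA change in 1 fit, was called lower in puf3 rho0 than in rho0 for 12 of 32 subunits (4.36% of all features called lower), with a median of -0.37. RPT1 had the lowest value (-0.70 ± 0.13, adjusted p 0.00941), followed by PUP1 (-0.70 ± 0.16, adjusted p 0.0193). The count was 1 without rescaling, and leaving out single libraries gave 4 to 23, with 23 when the first rho0 mRNA library was left out, 4 without the second puf3 rho0 footprint library, 5 and 6 without rho0 mRNA libraries 2 and 3 and 7 without the second puf3 rho0 mRNA library. In rho0 against wild type, efficiency was called higher for RPN8, PRE10 and RPN13 (0.49, 0.51 and 0.51, 3.7% of all features called higher), and leaving out single libraries gave 13 without the first rho0 mRNA library, 0 without library 2 or 3 of wild-type or rho0 mRNA, and 1 without either wild-type footprint library or the second rho0 footprint library. In puf3 against wild type 0 were called (0.687% of all features, 1 subunit at an unadjusted p under 0.05). Rescaling within each assay removes any change common to all footprints, and wild-type footprints are among the groups with low mating-type markers.

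**Figure D5:**
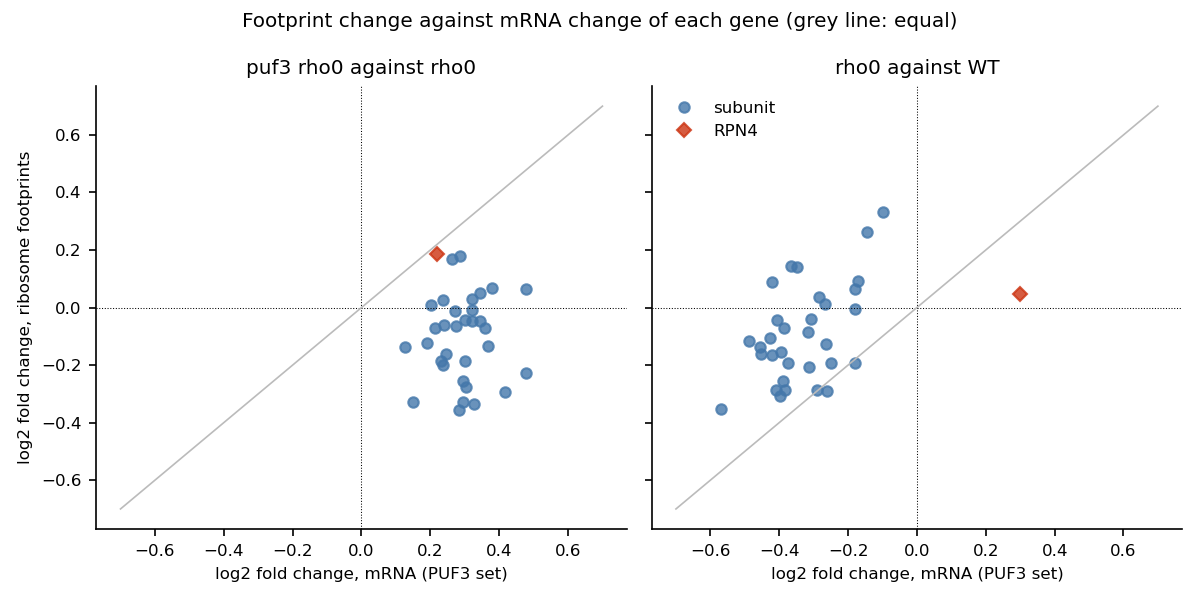
Log2 fold change of ribosome footprints (y axis) against that of mRNA in the PUF3 set (x axis) for the 32 subunits (circles) and RPN4 (diamond), for puf3 rho0 against rho0 (left) and rho0 against wild type (right), with a line of equal change. All subunits lie at positive mRNA changes on the left, with footprint changes around 0 whose median turns from -0.07 to 0.09 without rescaling.

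Genes that serve the proteasome were called in both directions in rho0. Over all features, 23.8% were called higher and 25.3% lower in rho0 of the OXPHOS set, 20.4% and 19.2% in the PUF3 set, 27.8% and 27.5% in the Puf3-15A set and 34.6% and 35.7% in the INH1 set. Of 15 assembly and associated factors, 5 were called higher and 3 lower in the OXPHOS set, 2 and 3 in the PUF3 set, 7 and 1 in the Puf3-15A set and 7 and 2 in the INH1 set. Several of these counts lie near the share over all features, and nothing is read from them about the group. The base assembly chaperones HSM3 and NAS6 rose in rho0 of the OXPHOS set (0.23 each, adjusted p 0.000474 and 0.000206), while BLM10, which encodes an alternative activator of the core, fell by 0.20 there (adjusted p 0.002), by 0.51 in the PUF3 set and by 0.25 in the INH1 set. HSM3 also rose in the PUF3, Puf3-15A and INH1 sets, by 0.17, 0.18 and 0.28. UMP1, the core assembly chaperone, rose with EB (0.57 ± 0.07, adjusted p 6.25e-06) and with copper (0.41 ± 0.03, adjusted p 2.07e-08), comparisons in which 10 of the 15 factors rose and 3 fell with EB, and 12 rose and 2 fell with copper. Over all features 36.2% were called higher and 35.8% lower with EB, and 35.3% higher and 36.2% lower with copper. In puf3 rho0 over rho0 8 of the 15 rose and none fell, where 15.8% of all features were called higher and 14.7% lower.

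Of 20 genes of the ubiquitin and Cdc48 pathway, 3 were called higher and 7 lower in rho0 of the OXPHOS set (23.8% and 25.3% of all features), 3 and 11 in the PUF3 set (20.4% and 19.2%), 6 and 3 in the Puf3-15A set (27.8% and 27.5%) and 10 and 4 in the INH1 set (34.6% and 35.7%). UBI4, the stress-induced polyubiquitin gene, rose in all 4 sets, by 0.36, 0.31, 0.55 and 0.77. RAD23, which carries ubiquitinated proteins to the proteasome, fell in all 4 sets, by 0.28, 0.61, 0.30 and 0.49 (adjusted p 2.74e-05, 5.18e-06, 2.2e-06 and 8.32e-08). CDC48, the segregase upstream of the proteasome, rose with EB (0.74 ± 0.06, adjusted p 1.71e-07) and was lower in snf1 EB than in EB-treated wild type (-0.67 ± 0.06, adjusted p 9.09e-07). With EB 16 of the 20 rose and 3 fell (36.2% and 35.8% of all features), and with copper 15 rose and 3 fell (35.3% and 36.2%).

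Of the 4 genes of RPN4 activators, PDR3 rose in rho0 of each set, by 0.89, 1.04, 1.12 and 1.29 in the OXPHOS, PUF3, Puf3-15A and INH1 sets, and PDR5, the drug efflux pump that Pdr1 and Pdr3 control, rose by 2.70, 2.01, 2.36 and 3.22. PDR3 also rose in atp7 (0.77 in the OXPHOS set and 0.59 in the PUF3 set), with EB (0.69), in snf1 EB over EB-treated wild type (0.80) and with copper (0.83). PDR1 was lower in rho0 of the PUF3 set (-0.23, adjusted p 0.0158) and not called in rho0 of the other sets. YAP1 rose in rho0 of the OXPHOS, Puf3-15A and INH1 sets, by 0.23, 0.19 and 0.26. Its value in rho0 of the PUF3 set and those of HSF1 in rho0 are not given here. No direction in rho0 is therefore read for the 4 genes together. HSF1 and YAP1 rose with EB (0.59 each), with copper (0.39 and 0.27) and in puf3 rho0 over rho0 (0.22 and 0.38). Among 18 cytosolic heat shock chaperones, 9, 12, 12 and 12 were called lower in rho0 of the OXPHOS, PUF3, Puf3-15A and INH1 sets, and 2, 0, 3 and 6 higher. Over all features 25.3%, 19.2%, 27.5% and 35.7% were called lower in these sets and 23.8%, 20.4%, 27.8% and 34.6% higher. In the comparisons where both RPN4 and most subunits were called higher, 16 of the 18 chaperones rose and none fell with copper (35.3% of all features called higher and 36.2% lower), and 7 rose and 6 fell with EB (36.2% and 35.8%). HSP12 rose in rho0 of every set and with EB, by 2.17 to 3.64, and in snf1 EB it was lower than in EB-treated wild type (-2.40 ± 0.36, adjusted p 8.19e-05). The part of these genes in the subunit values was not tested.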

How the data were processed

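Gene expression was measured by poly(A) mRNA sequencing and ribosome footprints (cycloheximide at 100 µg/ml for 2 min). The authors deposited RPKM values per library, and per the submitters' processing notes CASAVA 1.9, STAR 2.6.1a, featureCounts, edgeR 3.28.1 and the R64 genome were used in their processing. From these, limma 3.58.1 (R 4.3.3) was fitted within each set on log2(RPKM + 1), after rescaling by trimmed means (30% of ratios and 5% of levels trimmed), keeping features that reached 1 RPKM in a number of libraries equal to the smallest group. P-values were adjusted by Benjamini-Hochberg over all features tested. The code was tested on simulated data. Reads were worked out only to gauge depth, and at least 94.9% of the low values of annotated genes in each library came out as whole reads. For efficiency, mRNA and footprint libraries went into 1 fit. Tables were made with Python 3.11.15, pandas 2.3.3, numpy 2.4.6 and matplotlib 3.10.9. The members, gene lists and tests were chosen with earlier results of these data known. Any of the 33 members could be named; RPN4 came first, then called members with small p, members called against the median's direction, and the extremes. From other lists, up to 4 genes with the smallest p in a comparison were eligible, and UMP1, CDC48, PDR1, PDR3, PDR5, HSF1, YAP1, UBI4 and HSP12 by name; values of these genes in other comparisons follow them. Replicate numbers in the labels give no shared culture, and paired samples correlated above 0.1 in every pair in the MIG1 set alone (r from 0.129 to 0.433). Alternatives were another pseudocount (0.1 or 5 RPKM), no filter, no rescaling, median-ratio size factors, a replicate block, only the groups compared, parts of the OXPHOS wild type and leaving out each library. No sequences are shown, since no genome or sequence table was used here.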

Additional observations from a re-analysis of the deposited data

Results flagged for a closer look

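The effect of losing PUF3 differed between rho0 and wild type for 28 of 32 subunits (17.4% of all features were called higher) and for RPN4 (0.5803 on the log2 scale). These calls come from the test of the difference itself. The effect of the puf3-15A allele differed between rho0 and wild type for 2 of 32 subunits (10.4% of all features called higher). That count lies below the share over all features and was 0 without rescaling, so nothing is read from it. The effect of losing SNF1 differed between EB-treated and untreated cells for 28 of 32 subunits (22.9% of all features called lower). The subunit median against wild type had opposite signs in cells without mitochondrial DNA by strain and by EB. It was -0.166 in rho0 of the OXPHOS set, -0.356 in the PUF3 set, -0.0861 in the Puf3-15A set and -0.114 in the INH1 set, against 0.334 with EB in the SNF1 set, and this difference between sets was not tested. Without rescaling the INH1 median was -0.000735, with 9 subunits called higher and 9 lower. The other 3 rho0 medians were then -0.0792, -0.356 and -0.0614, and the EB median 0.241. Wild type of the PUF3 and INH1 sets has the lower mating-type markers. The 6 wild-type libraries of the OXPHOS set are the only group of more than 3 libraries. In them 33 members were examined for a single library apart from the others, and 0 were found. These libraries form separate trios, which widens their range. The measure could thus hardly find a single library, and nothing is read from this.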

How the results depend on the processing

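In all 90 results were recomputed, and 1134 of 1302 recomputed values were labelled unchanged. A count was so labelled within 1.5 times, and a median where it moved by no more than the spread between libraries. RPN4 was labelled by its sign and its side of the threshold, not by its size. A change of its sign between values that were both not called was also labelled unchanged. Medians below are of log2 changes over the subunits, and the causes of the shifts were not tested. Without rescaling, 0 subunits were called lower in atp7 of the OXPHOS set (median 0.0573) and of the PUF3 set (0.0493), 9 in rho0 of the OXPHOS set (-0.0792) and 9 of the INH1 set (-0.000735). The medians were -0.0614 in rho0 of the Puf3-15A set, -0.124 in puf3, 0.0248 in atp7 puf3 against atp7 and 0.460 for the puf3 effect in rho0 minus in wild type, and RPN4 in rho0 of the PUF3 set kept 0.30 with an adjusted p of 0.0773. For puf3-15A 1 subunit was called (-0.0395), in puf3-15A rho0 against rho0 0 were higher (-0.0126), and for the difference of these effects 0 (0.0349). In snf1 26 were higher (0.221), with EB the median was 0.241, in snf1 EB against EB 4 were lower (0.0317), for the snf1 effect with EB minus without 17 were lower (-0.199), and the medians were -0.00299 for snf1 mig1 and 0.224 for copper. In rho0 footprints 0 were lower (0.00252), in puf3 rho0 footprints the median was 0.0908, and in efficiency it was 0.373 for rho0, 0.0327 for puf3 and -0.255 for puf3 rho0, where 1 was lower.

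The replicate block pairs the OXPHOS mutants with wild-type libraries 1 to 3 by number alone. With it 1 subunit each was called in cor1 (median -0.0391) and cox9 (-0.0320), RPN4 had -0.24 and -0.23 there (adjusted p 0.0228 and 0.0249), 15 subunits were lower in atp7 (-0.107), and the rho0 median was -0.243. The block called 0 subunits for the puf3-15A difference, 1 for rho0 efficiency and 1 in the MIG1 set, where RPN4 had 0.19 (adjusted p 0.0243), and it moved no other result across the threshold and no other count by over 1.5 times. Against wild-type libraries 1 to 3 alone, 1 subunit each was called in cor1 (-0.0391, RPN4 -0.242) and cox9 (-0.0336, RPN4 -0.235), 14 were lower in atp7 (-0.102), and the rho0 median was -0.243. Against libraries 4 to 6 alone, 14 were called in cor1 (0.0903, RPN4 0.386), 16 in cox9 (0.0935, RPN4 0.394), 0 were lower and 5 higher in atp7 (0.0152), and 15 were lower in rho0 (-0.107, RPN4 0.504).

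In fits of the groups of a comparison alone, 0 subunits were lower in atp7 of the OXPHOS set (RPN4 0.48, adjusted p 0.0765), 0 in puf3 (RPN4 -0.375, adjusted p 0.202) and 13 in rho0 of the PUF3 set (RPN4 0.298, adjusted p 0.185). Then 10 were higher in puf3 rho0, the atp7 puf3 median was 0.0520, 0 were higher in puf3-15A rho0 (0.0331), 3 were lower in snf1 EB against snf1 and 0 in rho0 footprints. With a pseudocount of 0.1 RPKM or no filter, 1 subunit was called for the puf3 difference between atp7 and wild type, and with 0.1 or 5 RPKM 2 were higher in puf3-15A rho0. With libraries 1 of wild type and rho0 of the PUF3 set left out together, an alternative chosen after seeing the data, RPN4 in rho0 had 0.190 (adjusted p 0.0816).

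Leaving out single libraries gave these ranges, those of differences and efficiencies also chosen after seeing the data. In atp7 of the OXPHOS set 0 to 4 subunits were lower and RPN4 ranged from 0.388 to 0.541. In puf3 0 to 2 were lower and RPN4 ranged from -0.509 to -0.267. In atp7 of the PUF3 set 1 to 4 were lower, with medians of -0.0918 to -0.0282. RPN4 in rho0 of the PUF3 set ranged from 0.149 to 0.392. The atp7 puf3 median ranged from 0.0439 to 0.0663. For the puf3 difference between atp7 and wild type 0 to 1 were called, with medians of 0.0702 to 0.142 and RPN4 from 0.207 to 0.448. RPN4 in puf3-15A ranged from -0.163 to -0.0488. The rho0 median of the Puf3-15A set ranged from -0.0989 to -0.0733. In puf3-15A rho0 0 to 3 were higher (0.0394 to 0.0575), and for the puf3-15A difference 0 to 3 (0.0436 to 0.0697). In snf1 3 to 10 were higher, in snf1 EB against EB 16 to 26 lower, in snf1 EB against snf1 3 to 7 lower, and the median of the snf1 difference ranged from -0.383 to -0.266. In the MIG1 set 0 to 1 were called and RPN4 ranged from 0.148 to 0.248. In rho0 footprints 1 to 2 were lower (-0.194 to -0.0686), and the puf3 rho0 footprint median ranged from -0.132 to -0.0490. In efficiency 0 to 13 were higher for rho0, the puf3 median ranged from -0.0539 to 0.0263, and 4 to 23 were lower for puf3 rho0 (-0.459 to -0.308). The footprints had 1.15 to 2.98 M reads a library and 2 libraries a group, which limits their precision.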
